A study of Mus musculus with 6 samples.

Results

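The 9 genes described here encode transcription factors that make fat cells out of progenitor cells: Zfp423, Ebf1, Ebf2, Ebf3, Cebpb, Pparg, Cebpa, Klf15 and Prdm16. They were taken by gene name from the deposited table, where each of the 9 has 1 row among 32771 gene rows. All 9 had enough counts to be tested, as had 19241 genes in all. The table covers 6 libraries of whole aorta from wild-type mice, and every mouse had received AngII/BAPN: the pressor hormone angiotensin II, and beta-aminopropionitrile, which blocks the collagen and elastin crosslinking enzyme lysyl oxidase. The mice of 3 libraries (replicates 5, 7 and 39) also received anti-CTHRC1 antibody, whose target is secreted by activated fibroblasts, and those of the other 3 (replicates 14, 18 and 20) an isotype IgG. There were no mice without AngII/BAPN among these libraries, so each difference below is antibody against IgG within that model. Age, sex, doses and times, and whether each library came from 1 animal, are not given in the sources used here, so the p-values cover only library-to-library spread, which may be technical.

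Fat cells arise in steps. Progenitors in the walls of vessels and in connective tissue are first committed by ZFP423 and the early B cell factors (EBF), the C/EBP factors then switch on PPARgamma and C/EBPalpha, and these last maintain each other and the genes of lipid storage. PRDM16 and EBF2 direct cells to the brown or beige form of fat, which burns fuel as heat. The aorta is wrapped in perivascular fat, white along some stretches and brown along others, so whole aorta contains fat cells, their progenitors and the vessel wall together. In such bulk tissue a change in the number of cells of a type cannot be told apart from a change in RNA per cell.

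After the antibody the commitment factors Ebf2 and Zfp423 were higher than after IgG, by 2.61-fold and 1.88-fold, and their levels hardly varied among the antibody libraries. Cebpa, Ebf1 and Ebf3 were also higher in every antibody library than in any IgG library but did not pass the test. Pparg overlapped between the groups, and Cebpb, Klf15 and Prdm16 had overlapping groups with means slightly lower after the antibody. Thus 2 of the 9 factors passed in the higher direction and 0 in the lower, where 0.104% of all genes tested were called higher and 0.213% lower (edgeR quasi-likelihood test, Benjamini-Hochberg adjusted p under 0.05). In 5 factors the groups did not overlap, all in the higher direction, against 11.0% of all genes in that direction and 11.0% in the lower. The median log2 fold change was 0.70 over the 9 factors and -0.02 over all genes tested.

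The libraries were of similar depth, from 64556253 to 67859566 counts, but differed in composition. Mitochondrial genes held from 12.3% of the counts in IgG replicate 14 to 22.8% in IgG replicate 20. Genes with a count ranged from 23716 in IgG replicate 20 to 26950 in IgG replicate 14. Among the 1755 genes of at least 10 CPM in which antibody replicates 5 and 7 differed by over 0.5 on the log2 scale, replicate 39 was intermediate in 96.0%. Without these conditions it was intermediate in 6 of the 9 factors (not in Cebpb, Ebf2 or Zfp423). Replicates 5 and 7 were nearly equal in Ebf2 (log2 CPM 5.48 and 5.44) and Zfp423 (4.99 and 4.94), and Cebpb was under 10 CPM. These exceptions therefore do not show that replicate 39 behaved otherwise in them. In IgG replicate 14, 266 genes exceeded each of the other libraries by 4-fold or more after adding 1 CPM. Values with libraries left out are given for results of the 9 factors and for most gene lists that they move. They are not given for the other single genes called. Without antibody replicate 7 or 39, or IgG replicate 18, edgeR called 0 genes, so no edgeR call described below held there. Without antibody replicate 5 it called 2. Levels of a gene between libraries are given in CPM, the count scaled to library size by the TMM method. FPKM is the authors' value scaled to gene length as well, used to compare different genes.

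Sequences in front of the annotated starts are shown for the factor genes that the results turn on and for which a window could be read, so that the control regions of the genes described below can be seen. They are the 250 bases before a start, on the gene's strand, from RefSeq on GRCm38.p6, where 8 of the 9 factors matched, with 12 starts among them; Ebf2 had no entry. Capitals mark the EBF motif CCCNNGGGA or its reverse complement TCCCNNGGG, where N is any base.

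Zfp423, the upstream start, chr8:87959596-87959845, minus strand: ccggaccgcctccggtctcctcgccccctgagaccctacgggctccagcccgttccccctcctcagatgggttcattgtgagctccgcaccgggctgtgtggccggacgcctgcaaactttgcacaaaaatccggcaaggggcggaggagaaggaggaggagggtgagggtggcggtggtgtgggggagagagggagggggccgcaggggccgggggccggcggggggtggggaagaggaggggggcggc

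Zfp423, the downstream start, chr8:87804440-87804689, minus strand: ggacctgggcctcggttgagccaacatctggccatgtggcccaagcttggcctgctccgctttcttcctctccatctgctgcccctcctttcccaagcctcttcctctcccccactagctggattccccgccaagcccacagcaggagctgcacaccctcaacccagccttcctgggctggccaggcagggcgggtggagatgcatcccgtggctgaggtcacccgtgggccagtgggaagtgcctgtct

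Cebpa, chr7:35119043-35119292, plus strand: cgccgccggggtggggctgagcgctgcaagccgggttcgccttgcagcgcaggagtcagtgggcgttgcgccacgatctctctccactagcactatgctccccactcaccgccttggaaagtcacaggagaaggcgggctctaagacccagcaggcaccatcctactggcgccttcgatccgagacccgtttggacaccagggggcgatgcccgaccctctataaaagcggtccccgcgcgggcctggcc

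Ebf3, chr7:137314446-137314695, minus strand: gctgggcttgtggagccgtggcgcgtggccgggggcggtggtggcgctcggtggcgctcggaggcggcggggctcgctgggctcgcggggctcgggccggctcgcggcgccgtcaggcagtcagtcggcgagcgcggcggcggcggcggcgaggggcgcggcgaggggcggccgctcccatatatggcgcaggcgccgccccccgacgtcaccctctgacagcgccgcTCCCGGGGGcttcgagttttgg

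Pparg, the most downstream start, chr6:115421816-115422065, plus strand: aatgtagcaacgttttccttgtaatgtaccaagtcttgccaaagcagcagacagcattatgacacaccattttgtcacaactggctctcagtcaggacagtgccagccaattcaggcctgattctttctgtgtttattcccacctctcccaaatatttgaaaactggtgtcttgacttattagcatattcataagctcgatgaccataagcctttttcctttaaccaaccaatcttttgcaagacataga

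The EBF motif occurred on either strand in 2 of the 12 windows, those of Ebf3 and Cebpb, and in 5.60% of 32851 windows of the same length before all annotated starts. A C/EBP motif, TTGCGNAA on either strand, occurred in 0 of the 12 and in 0.670% of all windows. Some single sites can match the EBF motif in both orientations. The window of the most downstream Pparg start had 40.8% G and C, but those of its other starts had 82.4% and 63.6%. That of Cebpa had 66.4%, those of Zfp423 71.6% and 64.8%, and those of Ebf1 40.0% and 52.0%. The windows of Ebf3 and Cebpb, which held the EBF motif, had 80.0% and 81.6%. The shares over all windows were not matched for G and C. The deposited values are per gene, so they do not say which start of Pparg or Zfp423 was used.

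**Figure D1:**
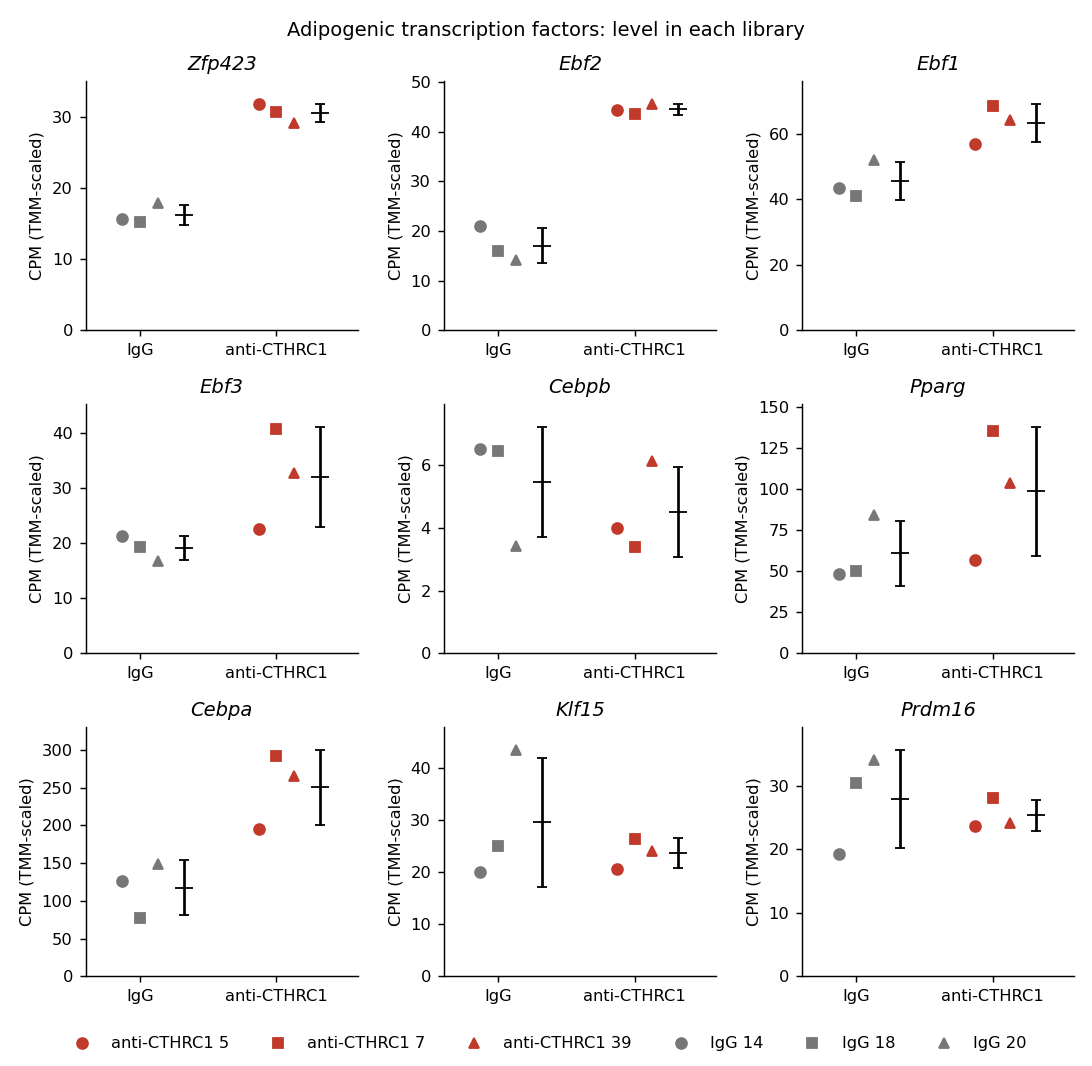
Level of each of the 9 factors in CPM (TMM-scaled, axes from 0) in the 3 IgG libraries (grey) and the 3 anti-CTHRC1 libraries (red), with the mean and SD of each group in black. Ebf2 (43.5 to 45.6 against 14.1 to 21.0) and Zfp423 (29.2 to 31.8 against 15.2 to 17.9) show the widest gaps relative to their spread, whereas the red and grey points of Pparg, Cebpb, Klf15 and Prdm16 intermingle.

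Ebf2 (ENSMUSG00000022053, chromosome 14, 67233292 to 67430918, plus strand, GRCm38) encodes the EBF factor that marks brown and beige preadipocytes and guides PPARgamma to brown fat genes. It was at 44.5, 43.5 and 45.6 CPM in antibody replicates 5, 7 and 39 and at 21.0, 16.0 and 14.1 CPM in IgG replicates 14, 18 and 20. The 3 antibody libraries were thus nearly equal, and the lowest of them was 2.07 times the highest IgG library. The group means were 44.5 ± 1.07 and 17.0 ± 3.57 CPM (SD, n = 3 each), the log2 fold change was 1.39 (SE 0.16) and the adjusted p was 0.0336 in edgeR over all genes. By p-value Ebf2 ranked 9th among all genes with higher values.

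Zfp423 (ENSMUSG00000045333, chromosome 8, 87661810 to 87959595, minus strand) encodes the zinc finger protein that commits fibroblast-like cells to the fat lineage upstream of PPARgamma and that binds EBF proteins. Its levels were 31.8, 30.7 and 29.2 CPM in antibody replicates 5, 7 and 39 and 15.7, 15.2 and 17.9 CPM in IgG replicates 14, 18 and 20. Both groups were narrow, and the lowest antibody library was 1.63 times the highest IgG library. The means were 30.6 ± 1.32 and 16.3 ± 1.42 CPM (SD, n = 3 each), with a log2 fold change of 0.91 (SE 0.11) and an adjusted p of 0.0348 in edgeR. The coefficient of variation among antibody libraries was 4.31% for Zfp423 and 2.41% for Ebf2, against 39.9% for Pparg and 20.01% for Cebpa.

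In edgeR both calls held without IgG replicate 14 (adjusted p = 0.0121 for Ebf2 and 0.0442 for Zfp423) or 20 (0.0289 and 0.0293). They were lost without antibody replicate 5 (adjusted p = 0.0797 for Ebf2 and 0.0885 for Zfp423), 7 (0.189 and 0.220) or 39 (0.296 and 0.316) and without IgG replicate 18 (0.151 and 0.149), while the log2 fold changes in the 4 fits that lost them stayed between 1.34 and 1.41 for Ebf2 and between 0.86 and 0.94 for Zfp423. With replicates 39 and 14 both left out, the log2 fold changes were 1.55 and 0.92, with adjusted p = 0.204 and 0.284 in edgeR, in a fit that called 0 genes of any kind (2056 reached 0.05 before adjustment, and 662 passed in DESeq2 with the same 4 libraries). DESeq2, a second count test, called both genes on all 6 libraries and in all 6 fits that left out 1 library.

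Ebf1 (ENSMUSG00000057098, chromosome 11, 44617317 to 45008091, plus strand) encodes an EBF factor that induces Cebpa and Pparg in preadipocytes and that also specifies B cells. It was at 56.97, 68.7 and 64.3 CPM in antibody replicates 5, 7 and 39 and at 43.6, 41.1 and 52.2 CPM in IgG replicates 14, 18 and 20. The groups did not overlap, but the lowest antibody library exceeded the highest IgG library by only 1.09 times. The log2 fold change of 0.47 (SE 0.13) did not pass (adjusted p = 0.174, edgeR). DESeq2 did not call Ebf1 on all 6 libraries (adjusted p = 0.0556) but did so in 2 of the 6 fits that left out 1 library, without antibody replicate 5 (0.0215) and without IgG replicate 20 (0.00569). B cell markers had 7 of 8 negative values (median -1.12, and -0.64 without IgG replicate 14). The 8 of 9 that could be tested summed to 2.92 to 4.25 CPM after the antibody and 3.51 to 9.78 CPM after IgG, with Ms4a1, Blk, Vpreb3 and Cd22 at 0 in at least 1 library, and their part in the Ebf1 values was not tested.

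Ebf3 (ENSMUSG00000010476, chromosome 7, 137193673 to 137314445, minus strand), a close relative of Ebf1 and Ebf2, was at 22.6, 40.9 and 32.7 CPM in antibody replicates 5, 7 and 39 and at 21.3, 19.4 and 16.8 CPM in IgG replicates 14, 18 and 20. Antibody replicate 5 lay just above the IgG libraries and replicate 7 far above them. The log2 fold change of 0.74 (SE 0.22) did not pass in edgeR (adjusted p = 0.192), and it was 0.53 without replicate 7. The transcripts of Ebf1, Ebf2 and Ebf3 in GENCODE M21 shared 0 stretches of 50 bases, and Zfp423 shared 0 with its paralogue Zfp521. The log2 fold changes of Ebf1 and Ebf3 were smaller than that of Ebf2, and whether they differ from it was not tested.

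Cebpb (ENSMUSG00000056501, chromosome 2, 167688915 to 167690418, plus strand), the early C/EBP factor that fires the cascade and is also induced in activated macrophages, was the least abundant of the 9 by counts, with 206 to 494 per library. It was at 4.01, 3.38 and 6.13 CPM in antibody replicates 5, 7 and 39 and at 6.51, 6.46 and 3.43 CPM in IgG replicates 14, 18 and 20. The groups overlapped, with a low and a high library in each. Its log2 fold change, -0.28 (SE 0.35), did not pass (adjusted p = 0.735, edgeR). Cebpb overlaps Tmem189 on the opposite strand, which held 2994 to 4153 counts per library, and the sources used here do not say if reads were counted by strand, so the Cebpb level is uncertain.

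Pparg (ENSMUSG00000000440, chromosome 6, 115360951 to 115490399, plus strand), the nuclear receptor that is both needed and sufficient for fat cell formation, was at 56.99, 135 and 104 CPM in antibody replicates 5, 7 and 39. In IgG replicates 14, 18 and 20 it was at 48.6, 50.03 and 84.0 CPM. Antibody replicate 5 lay below IgG replicate 20, so the groups overlapped. The means were 98.7 ± 39.4 and 60.9 ± 20.1 CPM (SD, n = 3 each), and the log2 fold change of 0.70 (SE 0.35) did not pass (adjusted p = 0.363, edgeR). It was 0.41 without antibody replicate 7 and 1.05 without IgG replicate 20.

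Cebpa (ENSMUSG00000034957, chromosome 7, 35119293 to 35121928, plus strand), the partner of PPARgamma in the mature fat cell, was at 195, 291 and 265 CPM in antibody replicates 5, 7 and 39. In IgG replicates 14, 18 and 20 it was at 126, 77.0 and 149 CPM. Every antibody library was higher than every IgG library, by at least 1.31 times. The means were 250.4 ± 50.1 and 117 ± 36.7 CPM (SD, n = 3 each), and the log2 fold change of 1.09 (SE 0.27) did not pass in edgeR (adjusted p = 0.154). In DESeq2 on all 6 libraries, Cebpa (adjusted p = 0.00155) and Ebf3 (adjusted p = 0.0425) passed beside Ebf2 and Zfp423. This makes 4 of 9 factors higher and 0 lower, where DESeq2 called 1.8% of genes higher. That share is over 32619 genes, low-count genes left out of the edgeR test included. Among genes with more counts the share may be larger. DESeq2 called Cebpa in 4 and Ebf3 in 2 of the 6 fits that left out 1 library.

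Klf15 (ENSMUSG00000030087, chromosome 6, 90462576 to 90475238, plus strand), a Krüppel-like factor that promotes fat cell differentiation and answers to glucocorticoids, went the other way in its mean. It was at 20.6, 26.3 and 24.2 CPM in antibody replicates 5, 7 and 39 and at 20.005, 25.1 and 43.6 CPM in IgG replicates 14, 18 and 20. IgG replicate 20 was the 1 high library, and the other 5 lay close together. Its log2 fold change, -0.32 (SE 0.29), did not pass (adjusted p = 0.618, edgeR), and without IgG replicate 20 it was 0.11.

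Prdm16 (ENSMUSG00000039410, chromosome 4, 154316125 to 154636866, minus strand), the coregulator that sets brown fat identity and is also found in arterial endothelium, was at 23.7, 28.1 and 24.2 CPM in antibody replicates 5, 7 and 39. It was at 19.3, 30.5 and 34.1 CPM in IgG replicates 14, 18 and 20. The IgG libraries spanned the whole antibody range. At -0.14 (SE 0.22) the log2 fold change did not pass (adjusted p = 0.786, edgeR), and it was 0.06 without IgG replicate 20.

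**Figure D2:**
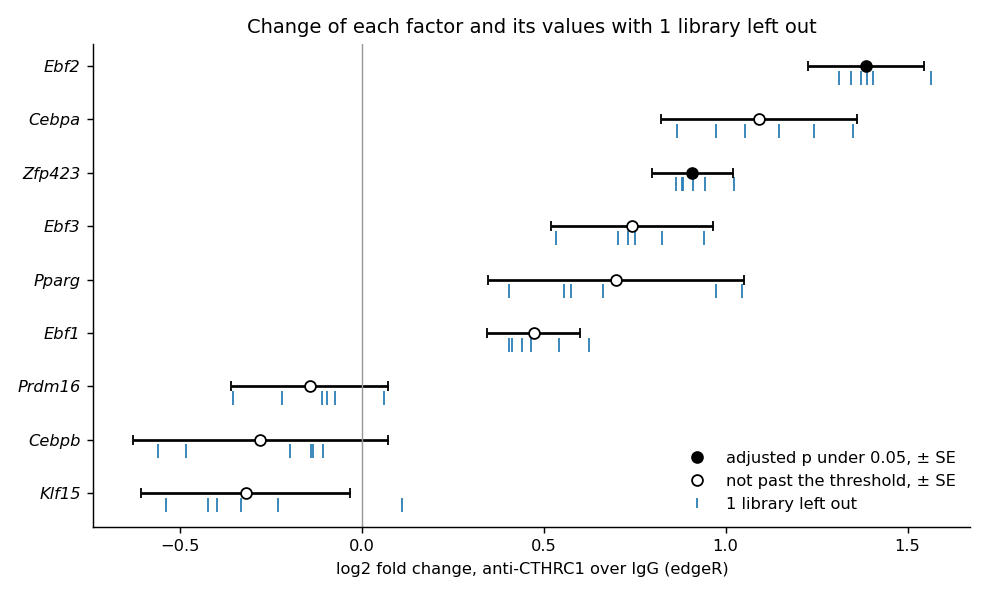
Log2 fold change of each factor, anti-CTHRC1 over IgG, with its standard error (edgeR, 3 libraries per group), filled where the adjusted p was under 0.05, and blue ticks for the 6 fits that each left out 1 library. The ticks of Ebf2 (1.31 to 1.56) and Zfp423 (0.86 to 1.02) stay close to their points, while those of Klf15 and Prdm16 fall on both sides of 0.

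On the per-length FPKM scale the order of the 9 levels could be compared. In both groups Cebpa was the most abundant (88.0 ± 15.7 FPKM after the antibody and 43.2 ± 13.02 after IgG), Pparg came next (30.9 ± 11.7 and 19.7 ± 4.86) and Klf15 next (7.86 ± 0.77 and 10.1 ± 3.34), each without overlap with its neighbour (SD, n = 3 each). Ebf1 followed in both groups, at 6.02 ± 0.42 and 4.53 ± 0.41 FPKM. After the antibody Ebf2 (5.97 ± 0.25) overlapped with Ebf1, and Zfp423 (5.06 ± 0.29) came after them. After IgG, Ebf2 (2.43 ± 0.74 FPKM) was 8th of 9, and the 6 genes from Ebf1 down to Ebf3 each overlapped with the next.

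Other genes that steer fat formation, from a list of 15 that promote it, split in direction, with 9 positive and 6 negative values, a median log2 fold change of 0.18 (0.37 without IgG replicate 20) and 0 past the threshold. Srebf1, which drives fatty acid synthesis genes, was at 297 ± 102 against 120 ± 29.3 CPM (log2 fold change 1.31, adjusted p = 0.140, edgeR). Stat5a, which transmits growth hormone and prolactin signals, was at 39.02 ± 4.72 against 21.7 ± 2.63 CPM (0.84, adjusted p = 0.0798). Nr3c1, the glucocorticoid receptor, was at 93.1 ± 4.33 against 70.3 ± 3.70 CPM (0.41, adjusted p = 0.141). Cebpd, which acts beside Cebpb early in the cascade, was at 37.7 ± 6.36 against 98.4 ± 45.6 CPM (-1.38, adjusted p = 0.141). In these 4 genes the groups did not overlap, which is likely in genes chosen for the smallest p. Over all 15 the groups did not overlap in 5 genes in the higher direction and 2 in the lower. The share over all genes tested was 11.0% in each direction.

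Among 12 genes that restrain fat formation, 6 values were positive and 6 negative, with a median of -0.07 (-0.23 without replicates 39 and 14, and 0.01 without IgG replicate 20), and 1 passed. Tsc22d3, which encodes the glucocorticoid-induced leucine zipper that opposes PPARgamma induction, was at 38.1, 41.8 and 38.9 CPM in antibody replicates 5, 7 and 39 and at 89.4, 148 and 124 CPM in IgG replicates 14, 18 and 20. The groups were far apart, and Tsc22d3 fell by 1.604 on the log2 scale (adjusted p = 0.0344, edgeR). Zfp521, the paralogue of Zfp423 that opposes it and EBF proteins, was at 55.4 ± 11.8 against 37.8 ± 9.19 CPM with overlapping groups (0.55, adjusted p = 0.279). Dlk1, the preadipocyte surface protein Pref-1, was low, at 3.92 ± 0.48 against 1.32 ± 0.76 CPM (1.57, adjusted p = 0.217), and Gata3, which represses Pparg, was at 0.71 ± 0.49 against 1.72 ± 0.23 CPM (-1.26, adjusted p = 0.292).

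Tsc22d3 also belongs to a list of 9 glucocorticoid-induced genes, the class to which Klf15 belongs by background. All 9 had negative values, with a median of -1.604, and 3 passed, 0 of them higher. Besides Tsc22d3 these were the clock gene Per1, which fell by 1.87 (adjusted p = 0.0412, edgeR), and the MAP kinase phosphatase Dusp1, which fell by 0.79 (adjusted p = 0.0275, edgeR). Sgk1, a kinase of salt transport, was at 44.4 ± 7.24 against 142 ± 67.7 CPM (-1.68, adjusted p = 0.110). The summed level of the list was 375 to 462 CPM after the antibody and 606 to 1491 CPM after IgG, while Klf15 overlapped between the groups.

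Of 16 other regulators of the brown and beige programme, 8 values were positive and 8 negative, with a median of 0.05 (0.02 to 0.09 with 1 library left out) and 0 past the threshold. The smallest p belonged to Foxc2, a forkhead factor that raises thermogenic genes, at 27.9 ± 0.55 against 37.4 ± 2.21 CPM (log2 fold change -0.42, adjusted p = 0.128, edgeR). Esrra, a nuclear receptor of mitochondrial genes, had 0.46 (adjusted p = 0.295), and the others in the order of p were Mecom with -0.35 and Rb1 with 0.27. Brown adipocyte markers, of which 11 of 12 could be tested and Zic1 was at 0 in at least 1 library, had 10 positive values, a median of 0.74 (0.38 without antibody replicate 7) and 0 past the threshold. Their summed level was 526, 1902 and 1274 CPM in antibody replicates 5, 7 and 39 and 643 to 739 CPM in the IgG libraries, so replicate 5 lay below all 3 IgG libraries, whereas its Ebf2 level lay between those of the other antibody libraries. Otop1, a proton channel of brown fat, had the smallest p of that list (1.29, adjusted p = 0.258), followed by Cox7a1 (0.97), Cox8b (0.85) and the potassium channel gene Kcnk3 (0.64).

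**Figure D3:**
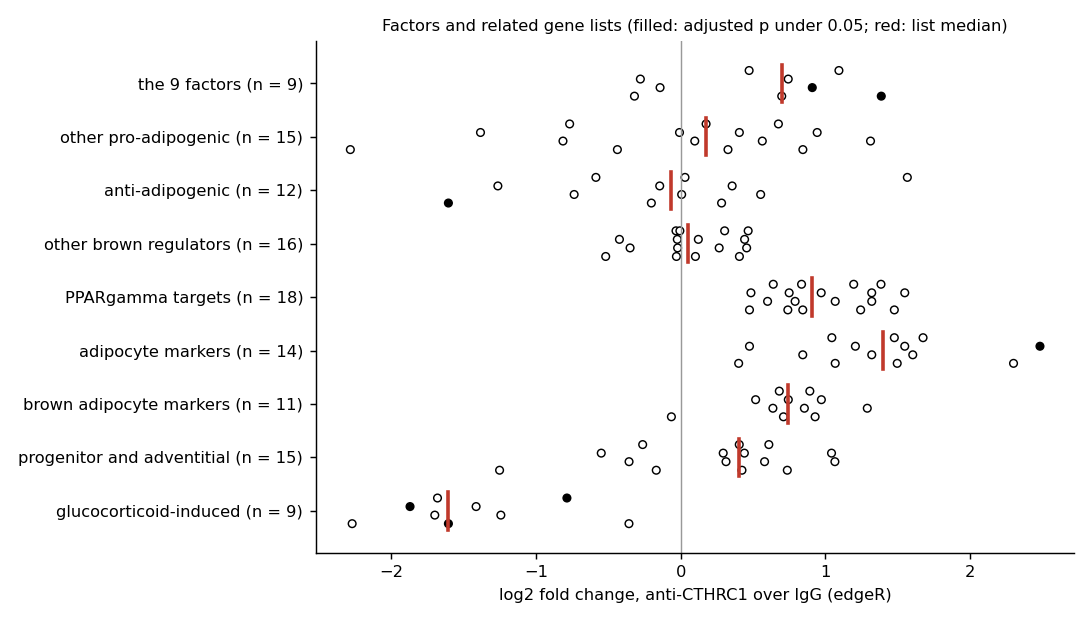
Log2 fold changes, anti-CTHRC1 over IgG (edgeR), of the single genes (circles, filled where the adjusted p was under 0.05) in the 9 factors and 8 related lists, with the list median in red; vertical placement within a list has no meaning. The PPARgamma targets and adipocyte markers lie wholly above 0 and the glucocorticoid-induced genes wholly below, while the other regulators of fat formation fall on both sides.

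All 18 PPARgamma target genes of fat cells had positive values, their median was 0.91, and 0 passed the threshold. In 9 of them the groups did not overlap, among them Plin1, the coat protein of lipid droplets (1.55, adjusted p = 0.129, edgeR), the phosphatidic acid enzyme Agpat2 (1.32, adjusted p = 0.148), the hormone-sensitive lipase gene Lipe (1.07, adjusted p = 0.155) and the glycerol channel Aqp7 (0.79, adjusted p = 0.154). Adipocyte markers, 6 of which are on both lists, were positive in all 14 (median 1.40), with the leptin gene Lep past the threshold (log2 fold change 2.48, adjusted p = 0.0412, edgeR) and Trarg1, Adrb3 and Retn next by p (adjusted p = 0.0513, 0.0726 and 0.121). The summed level of the adipocyte list was 14292 to 21962 CPM after the antibody and 6665 to 9485 CPM after IgG, and none of its genes was at 0 in any library. The part of this difference in fat cell RNA in the results for the 9 factors was not tested.

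The factors were also set against fat cell RNA of the same library. The same value was subtracted from every factor in a library, so their order by log2 CPM within a library was unchanged. The log2 CPM of Ebf2 minus the mean log2 CPM of the adipocyte markers was -2.64, -3.38 and -3.00 in antibody replicates 5, 7 and 39 and lay at -2.62, -2.69 and -3.68 in IgG replicates 14, 18 and 20, so the groups overlapped, with a difference of -0.01 (exact permutation p = 0.9, two-sided). For Zfp423 the groups overlapped too, with a difference of -0.51 (exact permutation p = 0.2). For the remaining 7 factors every antibody library was lower than every IgG library, with differences from -0.29 for Cebpa to -1.68 for Cebpb (exact permutation p = 0.1 for each, the smallest that 3 against 3 can give). The subtracted marker mean was itself higher in antibody replicates 5, 7 and 39 (8.11, 8.82 and 8.52) than in IgG replicates 14, 18 and 20 (7.01, 6.69 and 7.50). These 7 results share that marker difference, so they are not independent of each other. Relative to PPARgamma targets in place of the markers, only Pparg (-0.36), Klf15 (-1.26) and Prdm16 (-1.12) had groups that did not overlap.

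**Figure D4:**
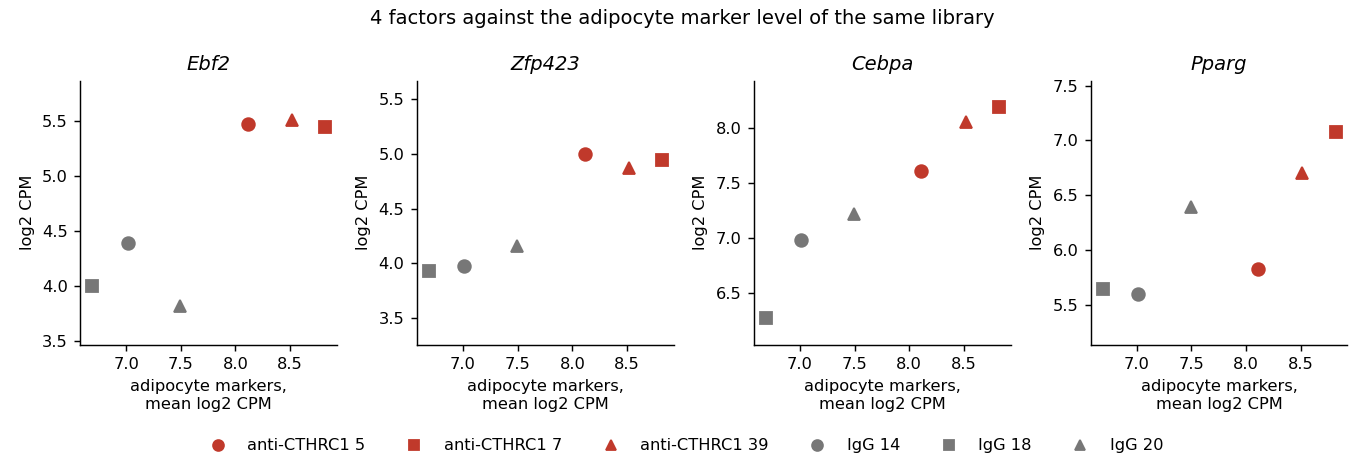
Log2 CPM of Ebf2, Zfp423, Cebpa and Pparg (vertical axes, each spanning the same range of log2 units) against the mean log2 CPM of 14 adipocyte markers in the same library (horizontal axes), IgG libraries in grey and anti-CTHRC1 libraries in red. Ebf2 and Zfp423 form a low and a high level with little slope within the antibody group, whereas Cebpa and Pparg are highest in antibody replicate 7, the library with the highest marker level.

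Markers of progenitors and adventitial fibroblasts, the other cells in which Ebf2 and Zfp423 are known to be active, had 10 positive and 5 negative values among 15. Their median was 0.40 (0.47 without IgG replicate 20), with 0 past the threshold. Pi16, which marks adventitial stem-like fibroblasts, was at 1080 ± 54.5 against 524 ± 194 CPM (1.04, adjusted p = 0.171, edgeR), and Dpt, a universal fibroblast gene, at 870 ± 112 against 582 ± 21.3 CPM (0.58, adjusted p = 0.147). Fap, which encodes fibroblast activation protein, had 1.07 (adjusted p = 0.165) and Fmo2, a monooxygenase, had -1.25 (adjusted p = 0.104). These genes were named because they had the smallest p of the list. Beside Fmo2 the negative values, against 10 positive, were those of Dpp4 (-0.55), Icam1 (-0.36), Pdgfrb (-0.26) and Pdgfra (-0.17). The list thus did not move as a whole. The summed level was 3594 to 4273 CPM after the antibody and 2868 to 3186 CPM after IgG, and none of the 15 was at 0. Against the mean log2 CPM of this list, chosen as a reference after the data were seen, Ebf2 was at -1.42, -1.32 and -1.35 in antibody replicates 5, 7 and 39 and at -2.20, -2.66 and -2.74 in IgG replicates 14, 18 and 20. The groups did not overlap for Ebf2 (difference 1.17), Cebpa (0.89) or Zfp423 (0.68), each with exact permutation p = 0.1, the smallest possible.

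Markers of the vessel wall and of blood-derived cells gave the following values in the same libraries, and their part in the results for the 9 factors was not tested. Contractile smooth muscle markers were negative in 10 of 10 (median -0.62, but -0.97 without antibody replicate 5, -0.37 without 7 and -0.32 without IgG replicate 18, summed level 2469 to 5609 against 3484 to 8148 CPM, Des with the smallest p, adjusted p = 0.153 in edgeR). Pericyte markers were positive in 5 of 7 (median 0.40, summed level 919 to 1158 against 679 to 1430 CPM), and endothelial markers were positive in 6 of 10 (median 0.06, but -0.13 without IgG replicate 14, 1066 to 1290 against 810 to 1398 CPM). Macrophage markers were negative in 9 of 10 (median -0.83, but -0.48 without IgG replicate 14 and -0.49 without replicates 39 and 14; summed level 784 to 1131 against 1455 to 1950 CPM), with Mpeg1 past the threshold (adjusted p = 0.0156, edgeR).

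Heart muscle markers were positive in 8 of 10, with Myl7 and Myl4 past the threshold (adjusted p = 0.0194 and 0.0156, edgeR), a median of 0.37 and summed levels of 254 to 549 against 44.8 to 855 CPM. With 1 library left out this median ranged from -0.05 (IgG replicate 20) and 0.05 (IgG replicate 18) through 0.19 and 0.59 (antibody replicates 7 and 5) to 2.64 (IgG replicate 14). Skeletal muscle markers were positive in 10 of 10 with a median of 0.97, which was 1.73 without IgG replicate 14, -0.04 without replicates 39 and 14, and -0.93 without antibody replicate 39, the library that held 430 of the CPM of this list against 43.7 and 58.4 in replicates 7 and 5. Mesothelial markers were negative in 8 of 8 with a median of -2.83, which was -1.10 without IgG replicate 18, and Krt19 and Muc16 were at 0 in at least 1 library.

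The genes whose profile over the 6 libraries was most like that of Ebf2, by the root mean square difference of centred log2 CPM among 14904 genes of at least 1 CPM, were Nr5a2 (0.127), Aldh1a7 (0.143), Fam167a (0.165), Mmd (0.170) and Me1 (0.178). Nr5a2 encodes the nuclear receptor LRH-1 and Me1 the malic enzyme that supplies NADPH for fatty acid synthesis. In these 5 genes the groups did not overlap, which follows from choosing them by likeness to Ebf2. Their adjusted p ran from 0.0564 to 0.135 in edgeR, so none passed. Zfp423 was 93rd in the same order (0.335). For Pparg the nearest were Lpl (0.0793), Bckdha (0.0890), Vegfa (0.0969), Aifm2 (0.108) and Echs1 (0.109). Lpl, the lipoprotein lipase gene and itself on the list of PPARgamma targets, was at 526, 1140 and 843 CPM in antibody replicates 5, 7 and 39 and at 426, 391 and 684 CPM in the IgG libraries in the order 14, 18 and 20, which is the order of Pparg except in IgG replicates 14 and 18. Ebf2 was 9565th in the order for Pparg (0.665), and Cebpa was 1055th (0.379).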

How the data were processed

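RNA of 6 mouse aorta libraries, 3 per group, was prepared with a stranded total RNA kit and read as 150-base pairs, per the labels' protocols. For each gene, the authors deposited 1 count (whole numbers, not normalized) and 1 FPKM value (scaled to gene length and library size) per library. Tools named in the submitters' processing notes are HISAT2, StringTie and DESeq2, with the build GRCm38. Their versions, the annotation and the counting mode, strand included, are not given in the sources used here. Coordinates are those of the deposited table, and for Prdm16 they differ from GENCODE M21 at 1 end.

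The main test was edgeR 4.0.16 under R 4.3.3 (TMM scaling, filterByExpr with the groups, robust quasi-likelihood F-test, two-sided, Benjamini-Hochberg over 19241 genes, threshold 0.05), with all 6 libraries and no covariate. Each standard error was derived from the F statistic, and the common biological coefficient of variation came to 0.397. On simulated counts with 200 changed genes among 14897, the step recovered 34% of 2-fold and 79% of 4-fold changes, with 6 false calls. A factor that did not pass may thus still have changed. Log2 CPM used a prior count of 1.

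The factors and gene lists were chosen with earlier results of these data known, so their counts are descriptions, read against all genes. Named genes are the 9 factors, up to 4 genes with the smallest p in each list of fat-related genes and any past the threshold, and the 5 nearest profiles to Ebf2 and Pparg. The remaining progenitor markers with negative values are named too. From marker lists of other cells, the text names the genes past the threshold and few others. Alternatives were DESeq2 1.42.0, its size factors, limma-voom (limma 3.58.1), other filters, library sizes without mitochondrial genes, a threshold of 0.10, limma on log2(FPKM + 1) for genes of at least 1 FPKM, and leaving out libraries. DESeq2 without each library, and the progenitor list as a reference, were added after the data were seen.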

Additional observations from a re-analysis of the deposited data

How the results depend on the processing

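The edgeR count of 61 genes past the threshold became 1584 with the DESeq2 Wald test, 95 with no filter, 98 with a mean of 5 CPM in 1 group, 234 at a threshold of 0.10 and 0 with replicates 39 and 14 both left out (2056 at an unadjusted p under 0.05 in edgeR, and 662 called by DESeq2 on the same libraries). Leaving out 1 library gave 0 (antibody replicate 7 or 39, IgG replicate 18, with 2054, 1802 and 2468 genes at an unadjusted p under 0.05) to 227 (IgG replicate 20) in edgeR and 732 (antibody replicate 39), 930 (7), 1016 (IgG replicate 18), 1881 (14), 1920 (antibody replicate 5) and 2506 (IgG replicate 20) in DESeq2. Of the 9 factors, 2 passed in edgeR, 4 in DESeq2, 0 in limma on log2(FPKM + 1), where Ebf2 had an adjusted p of 0.0565 and Zfp423 of 0.0501, and 0 in edgeR with replicates 39 and 14 both left out. Leaving out 1 library gave 0 to 2 factors in edgeR and 2 to 6 in DESeq2, the 6 being without antibody replicate 5. Pparg passed in DESeq2 without antibody replicate 5 (adjusted p = 0.0198) or IgG replicate 20 (0.0378). Among the 9 factors, signs changed for Klf15 and Prdm16 only, without IgG replicate 20 (0.110 and 0.0614 in edgeR, 0.0685 and 0.0239 in DESeq2), and their other values with 1 library left out reached -0.54 and -0.35; the cause was not tested. Across the 22 alternatives Ebf2 ranged from 1.05 to 1.57 and Zfp423 from 0.67 to 1.02, both lowest on the log2(FPKM + 1) scale, which understates changes of low genes. The other scalings moved the median of all genes by less than 0.1. Of 144 alternative medians of the gene lists, 8 moved by more than the spread between replicates and 7 changed sign (anti-adipogenic without IgG replicate 20, endothelial, heart and skeletal muscle lists). No paired analysis was possible because the groups share no replicate numbers.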
